A study of Homo sapiens with 8 samples.

Results

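The genes described here are the MYC, MYCN and MAX network: MYC, MYCN, MYCL, MAX, MXD1, MXD3, MXD4, MXI1, MNT and MGA. They were chosen by name, as the rows of the deposited table whose symbol equals a member, and are 10 of 60234 rows. Each symbol stood on 1 Ensembl identifier, and all 10 averaged 1 CPM (counts scaled to a common library total) or more over the 8 libraries, as the test required. Messenger RNA was measured by sequencing of transcript 3′ ends (QuantSeq) in Rh41, an alveolar rhabdomyosarcoma line grown in culture, of human origin, that carries the PAX3-FOXO1 gene fusion. The 4 control libraries are labelled control with no agent named, and the 4 siG9a libraries had knockdown of G9a, the histone H3 lysine 9 methyltransferase encoded by EHMT2. The series title writes shG9a where the sample labels write siG9a, and the reagent, its sequence and the time after knockdown are not given in the sources used here. The data come from 1 line, so the libraries are repeats of that line.

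The proteins of this network share a basic helix-loop-helix leucine zipper and act in pairs. MYC, MYCN and MYCL pair with MAX, bind the DNA motif CACGTG (the E-box) and activate genes of growth and division, while MXD1, MXD3, MXD4, MXI1 and MNT compete for MAX and recruit repressors to the same motif. MGA, a very large member with a T-box as well, pairs with MAX in a Polycomb-type complex from which G9a has also been purified. In alveolar rhabdomyosarcoma MYCN is a known target of PAX3-FOXO1.

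The motif that ties the network to its targets is shown here in promoters of genes described below. Sequences are from RefSeq (GRCh38.p14), matched by symbol, in windows from 250 bases before to 50 bases after each annotated start, and 9 of the 10 members matched. CACGTG, which reads the same on both strands and was searched as those letters with no overlap with another motif, was in 2 of the 9, MNT and MXD4, both repressor partners of MAX. It was in 8.77% of all genes with a window, and in 33 of 70 matched genes (47.1%) of the listed MYC-activated targets described below. Among those targets it was in 7 of 12 that passed the test given below (58.3%) and 26 of 58 that did not (44.8%). MAX had no match in its 2 windows. A match is a description of letters in this window. Capitals mark the motif, and the lines give the 2 members, the MAX-like partner MLX, and the polyamine enzymes ODC1 and SRM, which moved in opposite directions.
MNT: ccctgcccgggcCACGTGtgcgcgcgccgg
MXD4: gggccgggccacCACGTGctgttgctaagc
MLX: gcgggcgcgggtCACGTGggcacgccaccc
ODC1: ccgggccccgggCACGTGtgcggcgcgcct
ODC1: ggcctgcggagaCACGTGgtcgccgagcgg
SRM: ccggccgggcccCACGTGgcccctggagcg
These windows lie at chr17:2401236-2401265 (minus strand) for MNT, chr4:2262330-2262359 (minus strand) for MXD4 and chr17:42567038-42567067 (plus strand) for MLX. Those of ODC1 lie at chr2:10448024-10448053 (minus strand) and chr2:10447990-10448019 (minus strand), and that of SRM at chr1:11060200-11060229 (minus strand). The motif of MNT begins 193 bases and that of MXD4 238 bases before the annotated start. ODC1 holds 1 motif before its start and 1 just after it.

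Libraries held 1458825 to 1938665 reads assigned to genes, so 1 read was worth 0.516 to 0.685 CPM and the floor of 3 reads lay between 1.55 and 2.06 CPM. The members rested on few reads: 3 to 17 per library for MXD3, 4 to 58 for MYCN, 6 to 41 for MYC and 37 to 149 for MAX, up to 153 to 359 for MGA. EHMT2, the target of the knockdown, measured 57.6, 68.1, 87.3 and 88.3 CPM in control replicates 1 to 4 and 19.6, 35.1, 33.1 and 58.5 CPM in siG9a, lower in 4 of 4 pairs of libraries with the same number, and the groups overlapped. Lineage markers were uneven, with MYOD1 between 95.3 and 864 CPM, but PAX3 between 3.69 and 18.69 CPM and MYOG between 1.14 and 11.65 CPM. MYF5 was at 0 in all 8, and the 5 blood cell markers summed to 1.72 to 6.28 CPM. The 7 fibroblast markers summed to 51.95 to 406.5 CPM and the 5 epithelial markers to 10.29 to 75.63 CPM. The 2 libraries numbered 3 stood apart. Their 10 muscle and rhabdomyosarcoma markers summed to 574 CPM in control and 569.8 CPM in siG9a, where the other 6 libraries lay between 1595 and 3309 CPM. Their 6 neural markers, of which NEFM was the main one, summed to 9665 and 8965 CPM, where the others lay between 191 and 2958 CPM. NEFM, NEFL and SOX2 were the highest of their group there, while NEFH, TUBB3 and STMN2 lay between 0 and 2.46 CPM. The libraries numbered 3 also had the lowest fibroblast sum of their group (118.05 CPM in control and 51.95 CPM in siG9a). Their epithelial sum was the highest of their group (75.63 and 43.96 CPM). The mitochondrial share of reads was 4.59% to 9.18% in control and 5.21% to 13.7% in siG9a, higher in 4 of 4 pairs.

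The question put to siG9a against control is which members changed when G9a was knocked down. By limma on log2(CPM + 1) without a block, 0 of the 10 members passed an adjusted p of 0.05, as did 0.0% of all 15092 genes tested, and 1 member (MAX) and 1880 genes had an unadjusted p under 0.05. With the replicate number as a block, a term that compares each siG9a library with the control library of its number, 1 of the 10 members passed, against 11.4% of all genes, and edgeR and DESeq2 with that block also called 1, against 11.3% and 10.2%. EHMT2 passed with the block (limma adjusted p = 0.000472) and not without it (0.191). Values called blocked below, and the 95% intervals, which are not adjusted over genes, are from limma with this term. Rose and fell are used for genes that passed with it, whether or not they passed without it. The fit without the block was the main one and the block an alternative, because the labels do not say what the replicate numbers mean. Deviations of the libraries numbered 2 and of those numbered 4 correlated weakly, at 0.104 and 0.130. The share of members called was thus near that of all genes. The called member was MAX, and it was higher in siG9a, as were 4.86% of all genes by the same rule, while 6.52% were lower. DESeq2 without the block called 0 members and 2.28% of all genes. Of the 10 members 4 had a log2 difference above 0 and 6 below, with a median of −0.10, where the median of all genes was 0.01. None of the 10 had groups that did not overlap, as 7.32% of all genes did (3.88% higher in siG9a and 3.45% lower). For genes below that passed, a lack of overlap comes from the same values and is no separate support. Of the muscle and rhabdomyosarcoma markers, 5 of 9 tested fell with the block and 0 rose, and 0 of 4 neural markers passed. In the fibroblast and epithelial sets, 1 of 4 markers tested fell in each and 0 rose. The part of these markers and of the mitochondrial share in the values below was not tested.

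**Figure D1:**
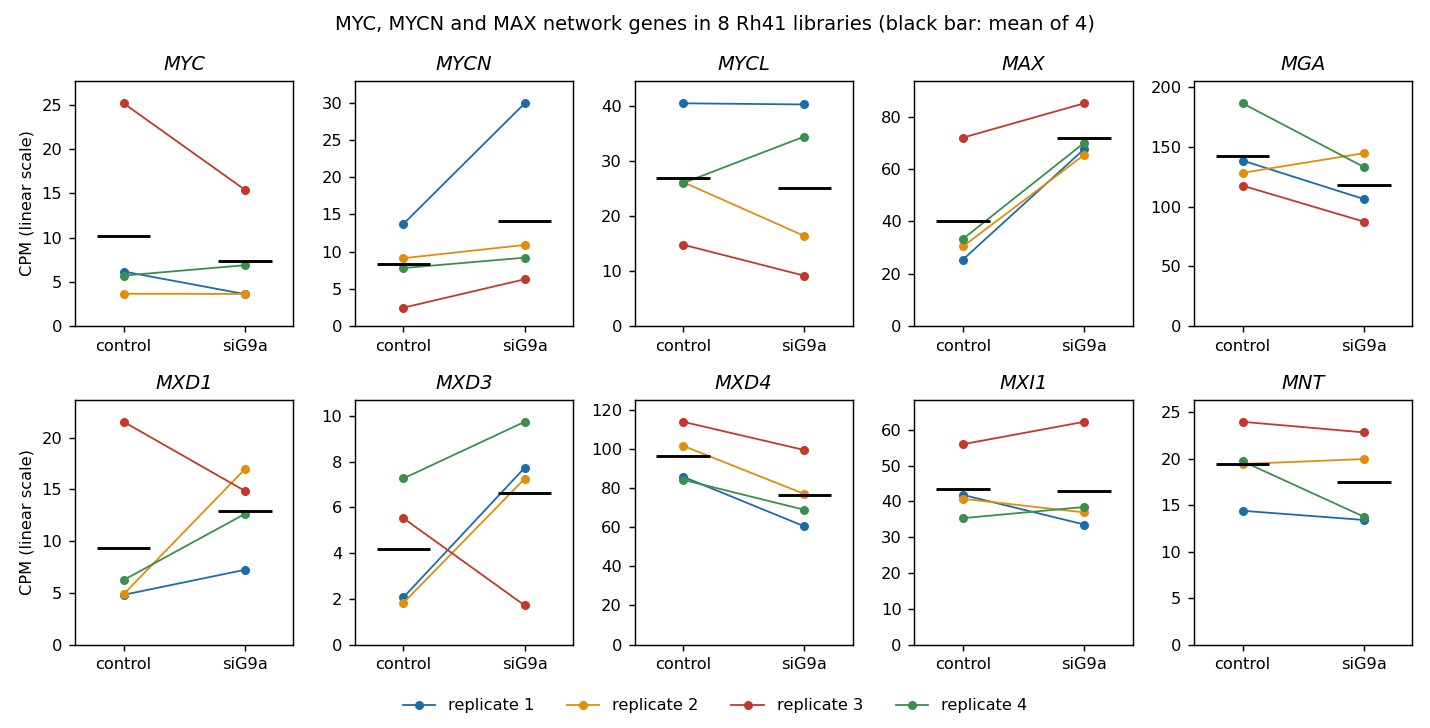
CPM (linear axes from 0) of the 10 network genes in 4 control and 4 siG9a libraries, with lines joining libraries of the same replicate number and black bars at the group means. MAX is higher in siG9a in all 4 pairs, and the libraries numbered 3 are the highest of their group for MYC and the lowest for MYCN and MYCL.

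MAX, the partner that MYC proteins and their antagonists all need, was the member that rose. MAX (ENSG00000125952) measured 25.4, 30.4, 72.0 and 33.2 CPM in control replicates 1 to 4, and 67.6, 65.4, 85.1 and 70.0 CPM in siG9a. The siG9a libraries lay close together, and 3 of the 4 control libraries lay below 33.3 CPM, but control replicate 3 lay inside the siG9a range, so the groups overlapped. The siG9a value was 2.66, 2.15, 1.18 and 2.11 times that of the control library of the same number. MAX averaged 40.2 ± 21.4 CPM (SD, n = 4) in control libraries and 72.0 ± 8.92 CPM (SD, n = 4) in siG9a libraries. The difference on log2(CPM + 1) was 0.94 ± 0.20 (SE; 95% interval 0.53 to 1.34), with a blocked limma adjusted p of 0.00246, and the unblocked fit gave an SE of 0.30 with an adjusted p of 0.243. With the block, the call held with edgeR (adjusted p = 0.00203), with DESeq2 (adjusted p = 0.00832) and in each of the 4 fits that left out 1 number from both groups. Without the block, leaving out control replicate 3 gave a log2 difference of 1.25 with a limma adjusted p of 0.0207, and leaving out both libraries numbered 3 gave 1.17 with 0.0164. An exact permutation test of the 8 values, two-sided, gave p = 0.114, where 4 against 4 can reach 0.0286. An antisense gene overlaps MAX in GENCODE 29 and was at 0 in every library.

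The 3 MYC genes did not pass the test in either fit. MYCN, the member tied to PAX3-FOXO1, measured 13.7, 9.11, 2.46 and 7.79 CPM in control and 29.9, 10.9, 6.28 and 9.18 CPM in siG9a. It was higher in siG9a in 4 of 4 pairs, as were 14.9% of all genes, with the largest difference in CPM in replicate 1, and the groups overlapped. On the log2 scale the difference was 0.65 (95% interval −0.02 to 1.31), with limma adjusted p-values of 0.208 (blocked) and 0.672 (unblocked). For MYCN it was 0.23 without siG9a replicate 1, and also 0.23 without control replicate 3. MYC, the founding member of the family, measured 6.17, 3.65, 25.2 and 5.71 CPM in control and 3.61, 3.63, 15.4 and 6.88 CPM in siG9a. The libraries numbered 3 were the highest in both groups, and the other 6 lay between 3.61 and 6.88 CPM with no separation of the groups. This gave a log2 difference of −0.27 (95% interval −0.99 to 0.44, blocked limma adjusted p = 0.685), and it took the other sign, 0.26, without control replicate 3. MYCL, the family member first found in lung cancer, measured 40.4, 26.1, 14.8 and 26.0 CPM in control and 40.2, 16.3, 9.13 and 34.4 CPM in siG9a. Replicate 3 was its lowest library and replicate 1 its highest in both groups, which overlapped. The log2 difference was −0.22 (95% interval −0.72 to 0.27, blocked limma adjusted p = 0.615). These intervals leave room for changes of either sign for MYC and MYCL.

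Among the MYC genes, MYCL was the most abundant in all 6 libraries not numbered 3, and MYC in both libraries numbered 3. Because the reads come from transcript ends, CPM levels of different genes are set side by side here without a correction for length. Whether reads of each gene were captured and assigned equally well was not tested. This limits the shares and ratios here and the order of members below. MYCL gave 67.0%, 67.2%, 34.8% and 65.8% of the summed CPM of the 3 genes in the control libraries, by number, and 54.5%, 52.9%, 29.6% and 68.2% in siG9a. MYC gave 59.4% and 50.0% in the libraries numbered 3 and 4.89% to 14.5% in the others. The sum of the 3 genes was 45.3 ± 10.1 CPM (SD, n = 4) in control libraries and 46.5 ± 20.4 CPM (SD, n = 4) in siG9a libraries, higher in 2 of 4 pairs. MAX stood at 0.420, 0.781, 1.70 and 0.842 times that sum in control and 0.916, 2.12, 2.76 and 1.39 times in siG9a, higher in 4 of 4 pairs with overlapping groups. Against the sum of all 9 other members, MAX stood at 0.0730 to 0.189 in control and 0.196 to 0.267 in siG9a, which did not overlap. These ratios were formed after the values had been seen and are given without a test.

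**Figure D2:**
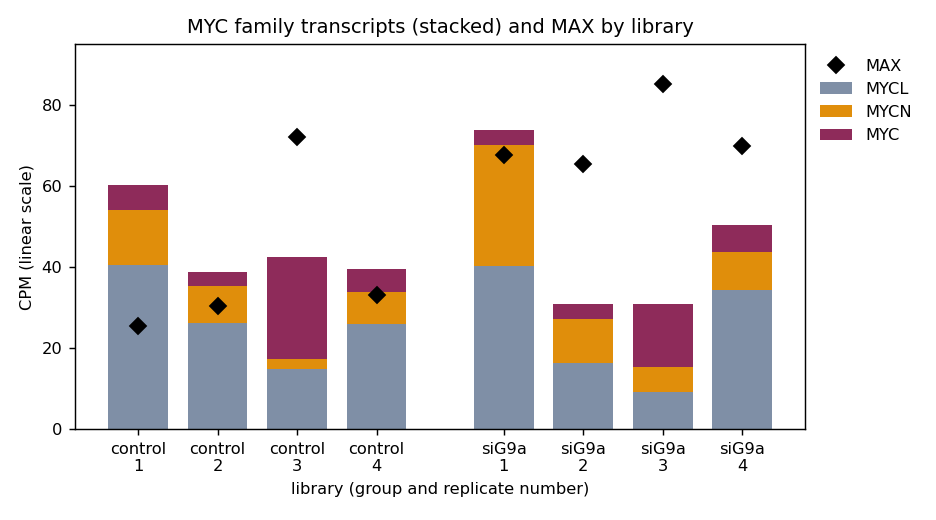
CPM (linear axis from 0) of MYCL, MYCN and MYC as stacked bars, and of MAX as diamonds, in each of the 8 libraries. MYC makes up 59.4% and 50.0% of the bar in the libraries numbered 3, and MAX lies between 65.4 and 85.1 CPM in siG9a.

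The antagonists that share MAX did not pass the test in either fit. MXD4, a repressor associated with differentiation, measured 85.7, 101, 114 and 84.1 CPM in control and 60.4, 76.9, 99.3 and 68.8 CPM in siG9a. It was lower in siG9a in 4 of 4 pairs, as were 15.3% of all genes, and the groups overlapped through replicate 3 of siG9a. On the log2 scale the difference was −0.34 (95% interval −0.67 to −0.01), with a blocked limma adjusted p of 0.175. MGA, the most abundant member, measured 138, 128, 117 and 186 CPM in control and 106, 145, 87.3 and 133 CPM in siG9a. It was lower in 3 of 4 pairs and higher in replicate 2, with a log2 difference of −0.28 (95% interval −0.60 to 0.04, blocked limma adjusted p = 0.277). MXD1, first described as MAD, measured 4.80, 4.86, 21.5 and 6.23 CPM in control and 7.22, 16.9, 14.8 and 12.6 CPM in siG9a. Replicate 3 was the highest control library, and in that pair the siG9a value was lower, while it was higher in the other 3 pairs. This gave a log2 difference of 0.63 (95% interval −0.07 to 1.34, blocked limma adjusted p = 0.255), and for MXD1 it was 1.09 without control replicate 3 and 0.30 with both libraries numbered 2 left out. Exons of MXD1 overlap SNRNP27 on the same strand, which had a mean of 116 CPM, so its reads are uncertain where the counting split them.

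The remaining 3 antagonists did not pass either. MXD3, which peaks in dividing cells, lay between 1.82 and 7.27 CPM in control and between 1.71 and 9.75 CPM in siG9a, with 3 libraries at the floor of 3 reads. It was higher in 3 of 4 pairs, with a log2 difference of 0.54 (95% interval −0.36 to 1.45, blocked limma adjusted p = 0.478), and its exons overlap RAB24 and PRELID1. MXI1, a repressor of the same family, averaged 43.4 ± 8.81 CPM (SD, n = 4) in control libraries and 42.8 ± 13.1 CPM (SD, n = 4) in siG9a libraries. Its log2 difference was −0.04 (95% interval −0.44 to 0.35). MNT, the antagonist present in most cell types, averaged 19.4 ± 3.92 CPM (SD, n = 4) in control libraries and 17.5 ± 4.67 CPM (SD, n = 4) in siG9a libraries, with a log2 difference of −0.15 (95% interval −0.67 to 0.36).

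**Figure D3:**
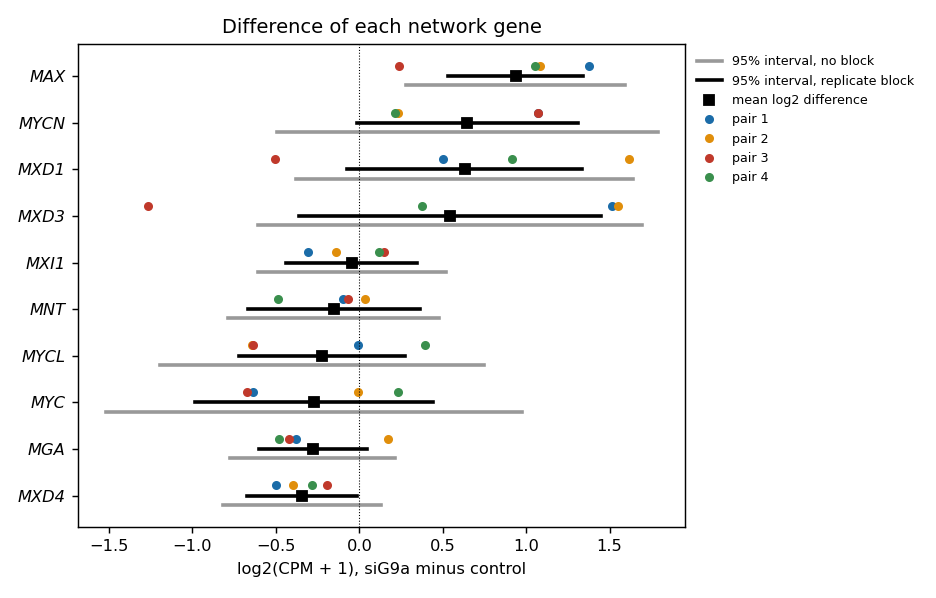
Difference of each network gene on log2(CPM + 1), siG9a minus control, with squares at the mean, black and grey lines for the 95% interval of the fits with and without the replicate block, and coloured points for the 4 pairs of libraries with the same number. The 4 points of MAX lie above 0, as do those of MYCN, and the 4 points of MXD4 lie below 0.

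In control the order of mean levels was MGA, MXD4, MXI1, MAX, MYCL, MNT, MYC, MXD1, MYCN and MXD3, from 142.6 ± 30.4 CPM down to 4.17 ± 2.67 CPM (SD, n = 4). Ranges did not overlap between MGA and MXD4 or between MXD4 and MXI1, and overlapped for every later pair of neighbours. In siG9a the order began MGA, MXD4, MAX, with MAX and MXD4 at overlapping levels, and MAX lay above MXI1 in 4 of 4 libraries. MAX thus ranked 4 in control and 3 in siG9a. The repressors and MGA summed to 315.3 ± 27.3 CPM (SD, n = 4) in control libraries and 274.0 ± 32.1 CPM (SD, n = 4) in siG9a libraries, lower in 3 of 4 pairs.

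The libraries numbered 3 differed from the rest of their group in most members. In both groups replicate 3 was the highest library for MYC, MAX, MXD4, MXI1 and MNT and the lowest for MYCN, MYCL and MGA, 8 of 10 members, where 39.9% of all genes tested had replicate 3 at the same end in both groups. On log2(CPM + 1), replicate 3 lay 2.11 (control) and 1.57 (siG9a) from the mean of the other 3 libraries for MYC, −1.66 and −1.09 for MYCN, and 1.26 and 0.33 for MAX. The same 2 libraries had the low sum of muscle markers and the high sum of neural markers given above, whose part in these values was not tested. Fewer cells of a type and less RNA per cell cannot be told apart in such bulk samples. The rise of MAX was as large without these libraries, at 1.17 against 0.94 with all 8.

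The 4 genes whose log2(CPM + 1) followed MYC most closely over the 8 libraries, among 8898 genes that averaged 10 CPM or more, were MYBBP1A (Pearson r = 0.988), PQBP1 (0.978), YBX3 (0.978) and DAXX (0.967). MYBBP1A, a nucleolar MYB-binding protein that is also on the list of MYC targets below, measured 38.4, 34.0, 93.5 and 36.4 CPM in control and 29.9, 27.2, 71.4 and 40.1 CPM in siG9a. Its high libraries were those numbered 3, as for MYC, and over the other 6 libraries r was 0.884. For PQBP1, YBX3 and DAXX it was 0.91, 0.80 and 0.82 over those 6. Those most like MYCN were TSPAN3 (0.979), TXNIP (0.979), MAN2A1 (0.973) and MEX3C (0.972), with r between 0.952 and 0.979 over the 6 libraries not numbered 3. Like MYCN (29.9 CPM), all 4 were highest in siG9a replicate 1, at 333, 246, 113 and 20.6 CPM. How far r rests on that library was not tested. All 8 points share the scaling to library totals, and the genes were picked for their r out of 8898, so these values are a description.

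TXNIP, which lowers glucose uptake, was listed here with the parallel branch of the network. In that branch MLX takes the place of MAX and pairs with MLXIP (MondoA) or MLXIPL. TXNIP measured 122, 92.4, 50.4 and 77.4 CPM in control and 246, 123, 77.1 and 104 CPM in siG9a, and rose with a log2 difference of 0.61 ± 0.16 (SE) and limma adjusted p-values of 0.0144 (blocked) and 0.518 (unblocked). It was higher in 4 of 4 pairs with overlapping groups. MLX measured 18.5, 29.2, 25.2 and 33.8 CPM in control and 43.3, 41.8, 34.3 and 35.6 CPM in siG9a, where the groups did not overlap, as for 3.88% of all genes in that direction. The log2 difference of MLX was 0.55 with a blocked limma adjusted p of 0.109, so it did not pass, and MLX overlaps PSMC3IP on the other strand. MLXIP went from 148 to 110.5 CPM (−0.42, blocked limma adjusted p = 0.0955), lower in 4 of 4 pairs. ARRDC4, like TXNIP an arrestin-domain protein, measured 2.74, 6.68, 3.69 and 4.15 CPM in control and 2.58, 1.21, 1.14 and 0.57 CPM in siG9a, from 1 to 11 reads a library. It was lower in 4 of 4 pairs without overlap between the groups, with a log2 difference of −1.18 and a blocked limma adjusted p of 0.0838, so it did not pass. Of the 5 genes listed with this branch, 1 passed with the block (TXNIP), beside 11.4% of all genes. With both libraries of 1 number left out of the limma fit with the block, the call was lost for TXNIP without replicate 1, 2 or 3 (adjusted p up to 0.127). The difference between MAX and MLX in their change was not tested.

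Neighbours of MYCN on chromosome 2 did not pass in either fit. MYCNOS, antisense to MYCN and overlapping it, was at or under 4.11 CPM in every library, with 3 libraries at 0. The sources used here do not say that reads were counted by strand. Without that, reads in the exon stretch that MYCN and MYCNOS share cannot be told apart. DDX1 and NBAS, which are often amplified with MYCN in tumours, went from 196 to 196 CPM and from 47.3 to 47.9 CPM, with log2 differences of 0.004, which took the other sign (−0.006) with median-ratio scaling, and 0.02. MYCNUT, listed under an older name, was at 0 in every library. CYRIA, listed under its older symbol FAM49A, went from 22.2 to 11.9 CPM with a log2 difference of −0.71 and a blocked limma adjusted p of 0.232. With both libraries numbered 4 left out, CYRIA had a log2 difference of −1.38 and passed with the block (limma adjusted p = 0.0123), in 1 of 13 alternative fits with it.

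Of 17 cofactors that MYC proteins use at chromatin, 2 rose and 0 fell with the block (11.8%, near the 11.4% of all genes), with a median log2 difference of 0.12. KAT2A, the GCN5 acetyltransferase, rose from 45.7 ± 3.71 CPM (SD, n = 4) in control libraries to 75.6 ± 18.8 CPM (SD, n = 4) in siG9a libraries, without overlap between the groups (limma adjusted p = 0.018 blocked and 0.258 unblocked). PAF1, of the elongation complex of that name, rose from 40.0 to 59.1 CPM (blocked limma adjusted p = 0.0455). With both libraries of 1 number left out of the limma fit with the block, the call was lost for KAT2A without replicate 1, 2 or 3 (adjusted p up to 0.161) and PAF1 without replicate 1, 2, 3 or 4 (adjusted p up to 0.157). PAF1 did not pass with DESeq2 and the block (adjusted p = 0.135). The other 15, among them TRRAP, WDR5, EP400 and ZBTB17, did not pass. Of 15 genes that act on the stability of MYC proteins, 3 passed with the block (20%, against 11.4% of all genes). PLK1 and CDK2, both kinases of the cell cycle, rose by 0.53 and 0.52, and SET, an inhibitor of the phosphatase PP2A, dropped by 0.453 on the log2 scale (blocked limma adjusted p = 0.0263, 0.0283 and 0.0291). PLK1 and CDK2 were without overlap between the groups, as were 3.88% of all genes in that direction. SET has 19 processed copies in GENCODE 29 that can share its reads. With both libraries of 1 number left out of the limma fit with the block, the call was lost for PLK1 without replicate 1, 2 or 3 (adjusted p up to 0.13), CDK2 without replicate 1, 2, 3 or 4 (adjusted p up to 0.125) and SET without replicate 2, 3 or 4 (adjusted p up to 0.144). DESeq2 with the block did not call PLK1 or CDK2 (adjusted p = 0.0599 and 0.0722). FBXW7, HUWE1, USP28, AURKA and GSK3B, which mark MYC or MYCN for decay or shield them from it, did not pass.

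Genes that MYC proteins are known to activate moved in both directions. Of 84 such genes tested in 4 functional lists, 7 rose and 8 fell with the block, 15 in all (17.9%) against 11.4% of all genes, and 0 passed without it, where the smallest adjusted p was 0.0898, for CCND2. Their median log2 difference was −0.12, against 0.01 for all genes, with 31 above 0 and 53 below, and the median was 0.03 without control replicate 3. Leaving out 1 number at a time from the fit with the block left 6 to 12 called, with 9 without the libraries numbered 3. Of all 15092 genes tested, 8898 averaged 10 CPM or more. The 11.4% was not matched to the abundance of the listed genes, here or for the other lists. In the ribosome biogenesis list 2 of 34 genes rose and 3 fell (14.7% in all, against 11.4% of all genes), with a median of −0.16. MRTO4, a ribosome assembly factor, fell from 274 to 183 CPM, IMP4 from 120.3 to 82.2 CPM and PES1 from 285 to 213 CPM, while TCOF1, the nucleolar protein treacle, rose from 259 to 356 CPM and RCL1 from 35.8 to 54.6 CPM. The blocked limma adjusted p-values in that order were 0.0114, 0.0196, 0.0372, 0.0224 and 0.0437. The call was lost for MRTO4 without replicate 2 or 3 (adjusted p up to 0.0919), IMP4 without replicate 1, 2 or 4 (adjusted p up to 0.0972), PES1 without replicate 1, 2 or 3 (adjusted p up to 0.273), TCOF1 without replicate 1 or 2 (adjusted p up to 0.214) and RCL1 without replicate 2, 3 or 4 (adjusted p up to 0.167). DESeq2 with the block did not call PES1 or RCL1 (adjusted p = 0.083 and 0.135), nor did edgeR with the block call PES1 (adjusted p = 0.0512). NCL, NPM1 and FBL, abundant nucleolar proteins, did not pass, with log2 differences of −0.24, 0.01 and 0.00.

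Of 15 genes of nucleotide and polyamine synthesis, 1 rose and 1 fell with the block (13.3% in all, against 11.4% of all genes). Both of these make polyamines. ODC1, which makes putrescine and holds 2 E-boxes in the window shown above, measured 119, 91.8, 111 and 126 CPM in control and 332, 151, 222 and 190.4 CPM in siG9a. The lowest siG9a library lay above the highest control library, as for 3.88% of all genes. The log2 difference was 0.94 ± 0.16 (SE), with limma adjusted p-values of 0.000327 (blocked) and 0.162 (unblocked). SRM, which turns putrescine into spermidine, measured 198, 262, 459 and 345 CPM in control and 119.7, 177, 313 and 191 CPM in siG9a. It was lower in 4 of 4 pairs with overlapping groups, and the log2 difference was −0.67 ± 0.14 (SE), with limma adjusted p-values of 0.0023 (blocked) and 0.407 (unblocked). The other 13 genes of the list, among them CAD, PPAT and IMPDH2, did not pass.

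Of 16 genes of glycolysis, uptake and mitochondria, 2 rose and 1 fell (18.75% in all, against 11.4% of all genes). PKM, a pyruvate kinase gene whose isoforms are not told apart here, fell from 871 ± 266 CPM (SD, n = 4) in control libraries to 514 ± 66.9 CPM (SD, n = 4) in siG9a libraries (limma adjusted p = 0.00192 blocked and 0.287 unblocked). The chaperonin HSPE1 rose from 99.4 to 147 CPM and C1QBP, a protein of the mitochondrial matrix, from 26.2 to 40.7 CPM (blocked limma adjusted p = 0.0164 and 0.0358). The call was lost for HSPE1 without replicate 1, 2 or 3 (adjusted p up to 0.0761) and C1QBP without replicate 1, 2 or 4 (adjusted p up to 0.251), and DESeq2 with the block did not call C1QBP (adjusted p = 0.111). HSPE1 has 26 processed copies, PKM 5 and C1QBP 2, and exons of C1QBP overlap DHX33 and RPAIN. LDHA, HK2 and ENO1 did not pass.

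Of 19 genes of translation and the cell cycle, 2 rose and 3 fell (26.3% in all, against 11.4% of all genes). Among them CCND2 moved most. CCND2, a cyclin of the G1 phase, measured 664, 453, 239 and 546 CPM in control and 169, 114, 129 and 153 CPM in siG9a. Every siG9a library lay below every control library, as for 3.45% of all genes. On the log2 scale the difference was −1.67 ± 0.16 (SE), with a blocked limma adjusted p of 3.13e-07. CDC25A, the phosphatase that switches on CDK2, measured 30.2, 46.2, 146 and 69.6 CPM in control and 82.0, 99.9, 211 and 99.2 CPM in siG9a, higher in 4 of 4 pairs with overlapping groups (log2 difference 0.89, blocked limma adjusted p = 0.00152). E2F2 rose from 31.1 to 50.8 CPM, and the helicase subunit MCM4 and the initiation factor EIF3B fell from 492 to 349.8 CPM and from 462 to 343 CPM (blocked limma adjusted p = 0.0273, 0.0214 and 0.0296). The call was lost for E2F2 without replicate 1 or 2 (adjusted p up to 0.227), MCM4 without replicate 1, 3 or 4 (adjusted p up to 0.0897) and EIF3B without replicate 1, 2 or 3 (adjusted p up to 0.172), and DESeq2 with the block did not call E2F2 (adjusted p = 0.0864). CDK4, EIF4E and CBX3 did not pass.

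Genes that MYC is known to repress were also split. Of 11 tested, 2 rose and 1 fell with the block (27.3% in all, against 11.4% of all genes), and the median log2 difference was −0.29 with 8 below 0. CDKN1B, the cell cycle inhibitor p27, measured 8.91, 6.68, 12.3 and 20.8 CPM in control and 41.8, 33.9, 26.8 and 26.4 CPM in siG9a. The groups did not overlap, as for 3.88% of all genes in that direction. The log2 difference was 1.42 ± 0.29 (SE), with limma adjusted p-values of 0.00178 (blocked) and 0.131 (unblocked). GADD45G, a stress-response gene, fell from 142 ± 10.6 CPM (SD, n = 4) in control libraries to 66.2 ± 37.0 CPM (SD, n = 4) in siG9a libraries, also without overlap (blocked limma adjusted p = 0.000606), and DESeq2 with the block gave an adjusted p of 0.0619. FTH1, the heavy chain of ferritin, rose from 232 to 427 CPM (blocked limma adjusted p = 0.00052), and its 25 processed copies can share its reads. CDKN1A, NDRG1 and GADD45A did not pass.

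**Figure D4:**
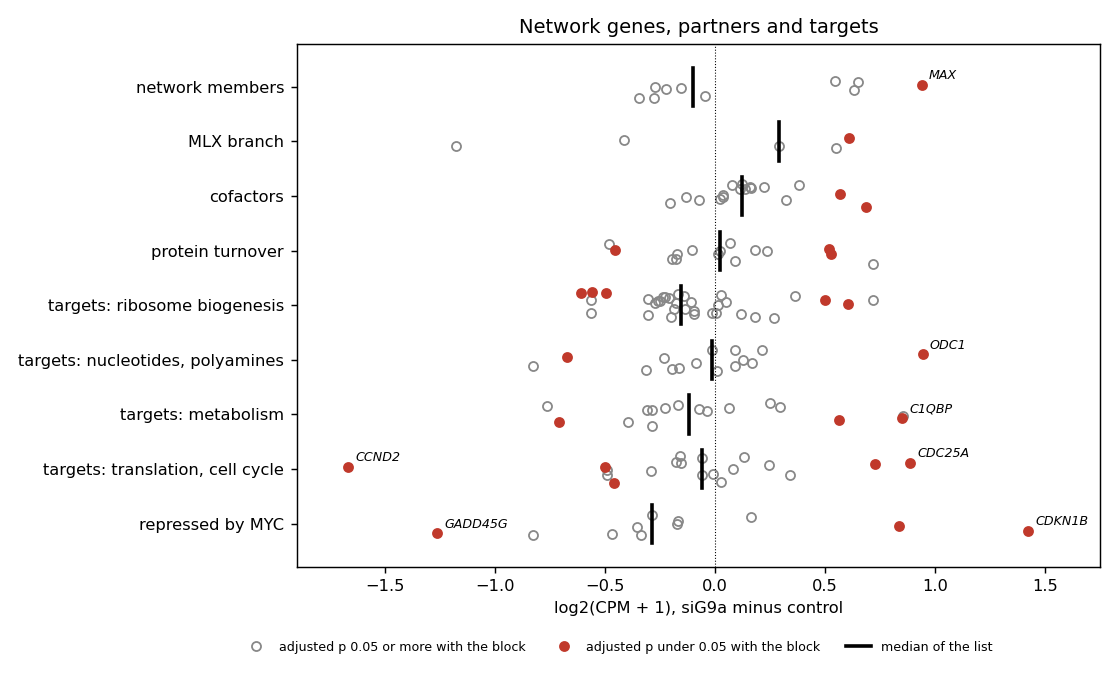
Difference on log2(CPM + 1), siG9a minus control, of every tested gene in the network and in the lists of partners and targets, with filled points for an adjusted p under 0.05 in limma with the replicate block and black bars at each list's median. Filled points of the activated target lists lie on both sides of 0, from CCND2 at −1.67 to ODC1 at 0.94.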

How the data were processed

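The data are 3′ end RNA sequencing (QuantSeq) of 8 Rh41 libraries, 4 control and 4 siG9a. The authors deposited 1 table of CPM (counts per gene scaled to a common library total). Per the submitters' processing notes, FastQC 0.11.8, Trim Galore, STAR 2.5.0a, HTSeq 0.8.0 and edgeR 3.28 were used, and the builds GRCh38 and hg19 are named without a role. CPM values above 0 were whole multiples of what 1 read was worth, within 0.005 CPM (100% of them in 6 libraries, 99.994% in control replicate 3 and 99.989% in siG9a replicate 3), which gave read counts of 1458825 to 1938665 per library. All 8 columns matched a sample.

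Genes averaging 1 CPM or more were tested on log2(CPM + 1) with limma 3.58.1 (R 4.3.3, moderated with a trend, two-sided), with Benjamini-Hochberg adjustment over 15092 genes and a threshold of 0.05. A fold change on this scale understates the change of low genes. edgeR 4.0.16 (quasi-likelihood, TMM) and DESeq2 1.42.0 on the recovered reads, the replicate block, other pseudocounts, filters and scalings, and fits with libraries left out were alternatives. The replicate numbers are in the sample titles, which do not say what a number stands for. The deviations of libraries with the same number from their group means correlated at 0.500, 0.104, 0.673 and 0.130, all over 0.1, so the numbers were taken to pair the libraries. Those for number 2 (the weakest) and number 4 were both below the 0.144 between control replicate 2 and siG9a replicate 4. Thus siG9a replicate 4 followed control replicate 2 more closely than the control library of its own number. On simulated data with 200 genes changed by 1.5 (log2) among 14794, limma recovered 48% without and 98% with the block. Simulated libraries of the same number were given the same mean before the change, so a gain from the block was built in. The simulation therefore cannot show whether the numbers pair the deposited libraries.

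Named were all members, the listed genes called with or without the block (at most 6 a list), MLX, MLXIP, TXNIP, the neighbours of MYCN, and the 4 genes most correlated with MYC and with MYCN. Genes named only as not passing were chosen after their values were seen. The members and lists were chosen with earlier results of these data known. The design text calls the replicates biological, and the p-values measure the spread between these libraries of 1 line. The floor of 3 reads covers counting error only.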

Additional observations from a re-analysis of the deposited data

Results flagged for a closer look

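In 7 of 82 groups of 4 libraries tested, 1 library lay far from the other 3 by Dixon's test (its gap to the nearest value, as a share of the group's range, exceeded the 95% critical value), where chance gives about 1 in 20, or 4.1 groups. All 7 were libraries numbered 3, and all were the highest of their group. Among the network genes, MYC in control replicate 3 was at 25.2 CPM, with the other 3 control libraries between 3.65 and 6.17 CPM. MAX in control replicate 3 was at 72.0 CPM, with the other 3 control libraries between 25.4 and 33.2 CPM. MXD1 in control replicate 3 was at 21.5 CPM, with the other 3 control libraries between 4.80 and 6.23 CPM. MXI1 in siG9a replicate 3 was at 62.2 CPM, with the other 3 siG9a libraries between 33.5 and 38.4 CPM. Among the listed partners and targets, PAF1 in control replicate 3 was at 52.9 CPM, with the other 3 control libraries between 34.3 and 37.0 CPM, and C1QBP in control replicate 3 was at 60.3 CPM, with the other 3 control libraries between 13.0 and 17.0 CPM. CDC25A in siG9a replicate 3 was at 211 CPM, with the other 3 siG9a libraries between 82.0 and 99.9 CPM. The low sum of muscle markers and the high sum of neural markers, mostly NEFM, in the libraries numbered 3 stand beside these values, and their part was not tested.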

How the results depend on the processing

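Without the block, 0 genes, 0 network genes and 0 activated targets passed in the limma fit. The replicate block gave 1717, 1 and 15, edgeR with the block 1709, 1 and 15, and DESeq2 with the block 969, 1 and 11. DESeq2 without the block called 291 genes and 2 targets, the limma fit with no filter 18 genes and 1 target, and leaving out both libraries numbered 3 gave 413 genes, 1 network gene and 2 targets. With the block, a pseudocount of 0.1 gave 1363, 1 and 12, a pseudocount of 5 gave 1710, 1 and 15, no filter 840, 1 and 7, and a mean of at least 5 CPM 1653, 1 and 15. With the block, median-ratio scaling gave 1693, 1 and 16 and quantile normalization 1688, 1 and 13, both chosen after seeing the data. Leaving out 1 library without the block gave 0 to 300 genes (300 without control replicate 3 and 2 without siG9a replicate 4), 0 to 1 network genes and 0 to 3 targets. With the block and both libraries numbered 1, 2, 3 or 4 left out, 951, 668, 1078 and 1393 genes, 1 network gene each time and 7, 6, 9 and 12 targets passed. The network gene was MAX in every one of these fits that called 1.

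Directions changed as follows. The log2 difference of DDX1 was −0.0060 with median-ratio scaling, with and without the block, −0.0068 with DESeq2, −0.0061 with DESeq2 and the block, and −0.047 with the block and number 2 left out. That of MXI1 was 0.044 and that of NBAS −0.21 with the block and number 1 left out. With 1 library left out and no block, the log2 difference ran from −0.66 to 0.26 for MYC, −0.52 to 0.16 for MYCL, −0.24 to 0.081 for MXI1, −0.046 to 0.073 for DDX1 and −0.098 to 0.20 for NBAS, and the median of the activated targets from −0.27 to 0.030, the last without control replicate 3. The other 7 network genes kept their direction in all 31 alternatives (30 for MXD3, which DESeq2 with the block gave no adjusted p), with ranges over these of 0.23 to 0.93 for MYCN, 0.30 to 1.09 for MXD1, 0.21 to 1.15 for MXD3, −0.43 to −0.14 for MGA, −0.29 to −0.04 for MNT, −0.48 to −0.24 for MXD4 and 0.76 to 1.25 for MAX. The calls with the block of MAX, ODC1, SRM, PKM, CCND2, CDC25A, CDKN1B, FTH1 and EHMT2 held in all 13 fits with it. The cause of these differences was not tested. MXD3 rested on 3 to 17 reads a library.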
